A study of Mus musculus with 4 samples.

Results

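The genes described here encode 7 ligands of the EGF receptor family (Areg, Ereg, Hbegf, Tgfa, Btc, Epgn and Nrg1) and 3 of its receptors (Egfr, Erbb2 and Erbb3). They were taken by symbol from the deposited gene table, where all 10 were found among 30360 genes. Taking them by symbol used no measured value, but the list was chosen with earlier results of these data known. The ligands are made as membrane-anchored precursors, and metalloproteases such as Adam17 cut them free at the cell surface. Areg, Ereg, Hbegf, Tgfa, Btc and Epgn bind Egfr, whereas Nrg1 binds Erbb3, which has little kinase activity of its own, and Erbb2, which has no known ligand, serves as the preferred partner of the other receptors. In the gut this family drives proliferation and repair of the crypt epithelium, and stromal cells near the crypt base are a known source of Nrg1 and Ereg.

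Organoids grown from the distal colon of 16-week-old mice (age as in the labels) were profiled as single cells. Donors were wildtype or Tnfr2-/-, which are deficient in TNF receptor 2, encoded by Tnfrsf1b. In each genotype, 1 culture at passage 5 was left untreated and 1 was given 20 ng/ml tumor necrosis factor (TNF) from day 1 until day 6, and both were taken apart on day 7. Apoptotic cells were depleted from all 4 cultures before 10x 3′ libraries were made, and each condition had 1 library. Differences between libraries therefore had no replicate check, and no test between conditions was made.

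The 4 libraries held 980 to 2589 cells, with a median of 26293 to 39112 UMIs (unique molecular identifiers, each a counted transcript molecule) per cell. Medians were 30306 to 41057 UMIs in epithelial cells and 22642.5 to 48633 in mesenchymal cells. Of 6155 cells, 4172 were in an epithelial class of the deposited annotation, 1948 were in a mesenchymal class and 35 had no class. Mesenchymal cells made up 55.2% of the wildtype untreated library and 8.06% to 20.8% of the other 3. Only 3 barcodes occurred in 2 libraries. The targeted transcript, Tnfrsf1b, was at 9.76 and 14.0 CPM in the wildtype libraries (untreated, TNF) and at 2.05 and 7.59 CPM in the Tnfr2-/- libraries. In epithelial cells it was at 4.17 CPM (3.63 to 4.78), 12.1 CPM, 1.82 CPM and 6.89 CPM (6.10 to 7.75) in the same order, so that Tnfr2-/- TNF was above wildtype untreated. The sources used here do not give the deleted part, and a 3′ tag outside it checks nothing. All 8 epithelial marker genes checked were detected in the epithelial cells of every library (summed level 13745 to 18947 CPM), where the 8 mesenchymal markers summed to 5.29 to 23.2 CPM. In the mesenchymal cells the mesenchymal markers summed to 9233 to 15785 CPM and the epithelial markers to 164 to 889 CPM, with the highest value in the Tnfr2-/- TNF library.

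Levels are given as CPM, counts of a gene scaled to the total UMIs of the same group of cells (counts per 1000000). Series of 4 values always run from the wildtype (untreated, then with TNF) to Tnfr2-/- (untreated, then with TNF). Brackets after a level or a fold give the exact 95% interval, which covers counting error only. Log2 differences were taken on CPM + 1. A gene was counted as higher or lower where the difference was at least 2-fold and the larger level was at least 20 CPM. Since levels are relative to all UMIs of a group, less of a transcript and more of the others cannot be told apart.

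Areg, Ereg, Epgn and Btc lie next to each other on mouse chromosome 5. In GENCODE M21 (GRCm38), Epgn spans 91027464 to 91035215, Ereg 91074622 to 91093646 and Areg 91139599 to 91148432, all on the plus strand, and Btc spans 91357261 to 91402994 on the minus strand. The cluster covers 376 kb, and 46.0 kb separate the end of Ereg from the start of Areg. The antisense gene Gm19610 overlaps the start of Ereg, and since no source used here states the strand setting of the counting, its reads may have been counted with those of Ereg. The 250 bases before the RefSeq start of Areg, Epgn and Btc are shown (6 of the 10 members were searched). They are from GRCm38.p6, written 5′ to 3′ on the strand of each gene, at chr5:91139349-91139598 (Areg, plus strand), chr5:91027267-91027516 (Epgn, plus strand) and chr5:91402995-91403244 (Btc, minus strand). Capitals mark the motifs found.
Areg: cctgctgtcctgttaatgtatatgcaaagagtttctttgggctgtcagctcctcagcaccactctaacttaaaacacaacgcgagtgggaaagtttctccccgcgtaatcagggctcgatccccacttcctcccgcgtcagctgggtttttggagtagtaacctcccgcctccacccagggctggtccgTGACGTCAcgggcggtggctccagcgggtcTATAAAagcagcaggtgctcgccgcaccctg
Epgn: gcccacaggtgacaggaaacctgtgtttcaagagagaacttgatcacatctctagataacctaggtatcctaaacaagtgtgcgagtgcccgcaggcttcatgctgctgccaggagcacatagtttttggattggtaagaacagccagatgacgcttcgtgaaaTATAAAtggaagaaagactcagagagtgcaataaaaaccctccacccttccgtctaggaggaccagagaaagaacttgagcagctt
Btc: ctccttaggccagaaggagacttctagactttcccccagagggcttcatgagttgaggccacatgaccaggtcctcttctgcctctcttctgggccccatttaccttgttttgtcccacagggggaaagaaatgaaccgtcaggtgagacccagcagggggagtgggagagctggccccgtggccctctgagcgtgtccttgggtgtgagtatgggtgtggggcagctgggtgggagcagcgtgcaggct

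On both strands 4 motifs were searched: the AP-1 motif TGANTCA, the cyclic AMP response element TGACGTCA, the TATA box TATAAA and the kappa-B motif. The Areg promoter holds the cyclic AMP response element 61 to 54 bases before the start and a TATA box 31 to 26 bases before it. Among 32536 RefSeq promoters of the same length, 1.56% hold that response element and 12.3% hold TATAAA. The Epgn promoter holds TATAAA 86 to 81 bases before the RefSeq start, which lies downstream of the GENCODE start given above. None of the 4 motifs occurs in the windows of Btc, Tgfa, Egfr or Erbb2, the other members searched, against 6.73% (AP-1) and 7.28% (kappa-B) of all promoters. A match of letters is a description and not a bound site. The Ereg, Nrg1, Erbb3 and Hbegf promoters were not searched and are not shown here.

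The family divided between the cell types. Areg, Hbegf and Erbb3 were higher in epithelial than in mesenchymal cells in all 4 libraries, and Ereg, Nrg1 and Egfr were lower in all 4. These were 3 genes in each direction of the 7 that reached 20 CPM in every library, while 10.4% of the 5868 genes tested were higher in epithelial cells in all 4 libraries and 14.8% were lower. Tgfa, Btc and Erbb2 had the higher level in epithelial cells in every library, but did not pass the 2-fold and 20 CPM rule in all of them. Epgn never exceeded 1.39 CPM in either cell type. Epithelial and mesenchymal classes were defined by the authors from the same transcripts, so this division is a description of the classes.

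**Figure D1:**
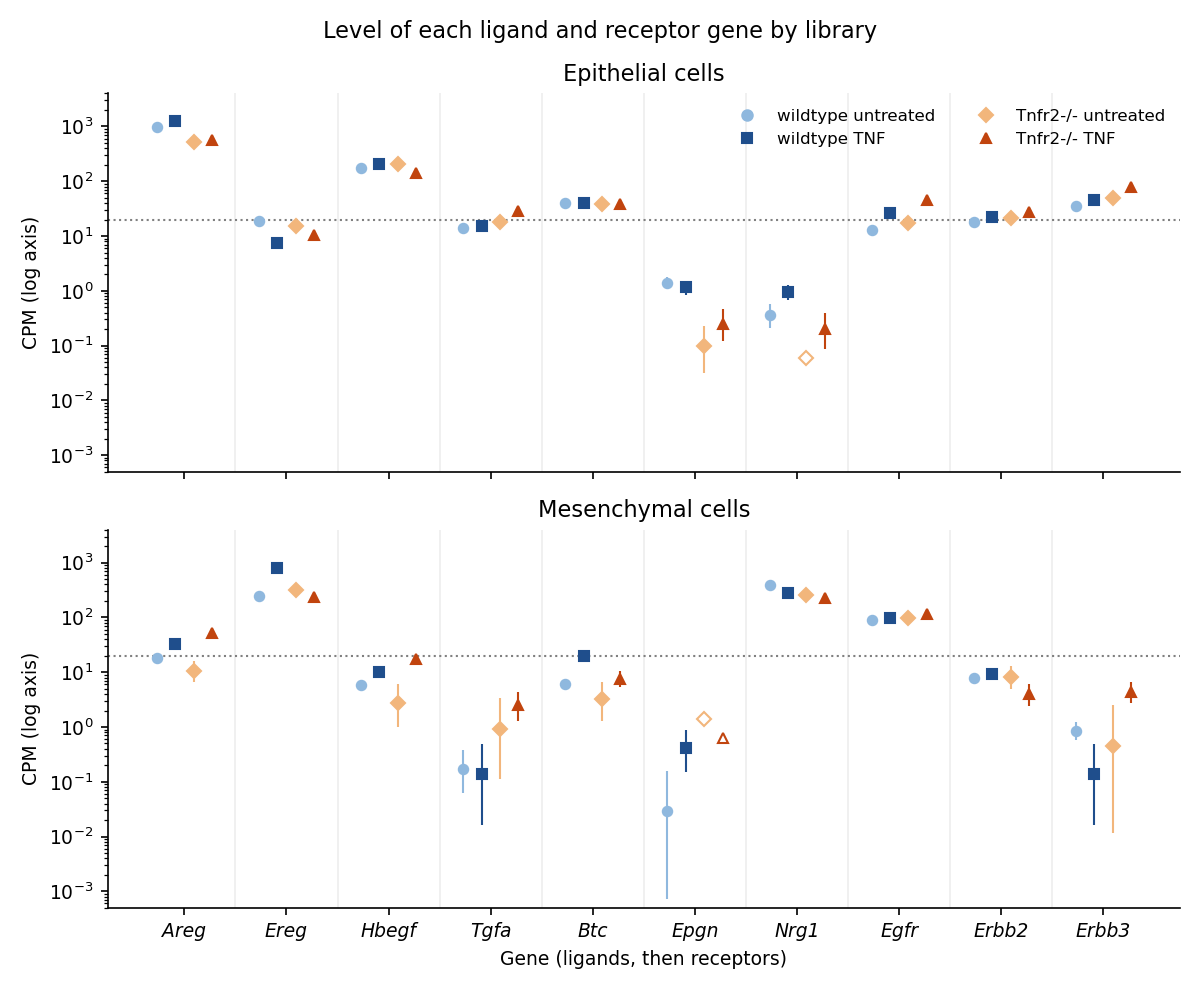
Levels of the 10 genes in epithelial cells (top) and mesenchymal cells (bottom) of the 4 libraries, in CPM on a log axis, with exact Poisson 95% intervals as bars and open symbols at the limit that 0 UMIs allow. Areg and Hbegf were at 514 to 1236 and 142 to 204 CPM in the top panel and far lower in the bottom panel, where Ereg (233 to 793 CPM) and Nrg1 (229 to 394 CPM) lay far above their epithelial levels. The dotted line marks 20 CPM.

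Areg encodes amphiregulin, an Egfr ligand known for its part in epithelial repair. In epithelial cells it was at 966 CPM (958 to 975), 1236 CPM (1225 to 1246), 514 CPM (508 to 520) and 576 CPM (568 to 583). Both Tnfr2-/- libraries were below both wildtype libraries. The Tnfr2-/- level was 0.532 of the wildtype level without TNF (0.524 to 0.540) and 0.466 of it with TNF (0.459 to 0.473), or log2 differences of -0.91 and -1.10. The latter made Areg the only member called between the genotypes with TNF, where 11.4% of 6073 genes tested were called and 6.37% were lower. That call was lost under TMM scaling (log2 -0.94), under median-of-ratios scaling (-0.95) and in the mean over cells (-0.81), all with the same direction.

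The Areg difference between genotypes was larger within the Progenitor.2 class and differed between classes. In Progenitor.2, Areg was at 1987 CPM (1920 to 2055), 2417 CPM (2390 to 2445), 775 CPM (758 to 793) and 615 CPM (607 to 624). The Tnfr2-/- level was 2.56-fold lower without TNF (2.46 to 2.67) and 3.93-fold lower with TNF (3.861 to 4.0002). In Progenitor.1 (546, 335, 647 and 95 cells) the values were 508, 767, 477 and 363 CPM. There the genotypes lay close together without TNF (log2 -0.09), and with TNF the Tnfr2-/- level was 2.11-fold lower. The wildtype untreated library holds only 62 Progenitor.2 cells, with a median of 15574.5 UMIs against 33685 to 39167 in the other 3. With cells of at least 20000 UMIs alone, 23 of these 62 remained, and the log2 differences between genotypes in Progenitor.2 were -1.02 without TNF and -1.94 with TNF.

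Counts per cell gave the same order. After each cell was thinned to 5000 UMIs, Progenitor.2 cells held a mean of 13.3, 13.5, 3.73 and 3.13 Areg UMIs, with medians of 9.5, 11, 2 and 2. At least 10 Areg UMIs were found in 50% and 57.4% of the wildtype cells but in 10.2% and 5.92% of the Tnfr2-/- cells. The share with any Areg UMI differed less, at 91.1%, 94.4%, 77.8% and 71.4% (unthinned 95.2%, 98.2%, 88.4% and 90.2%). Mesenchymal cells served as the type that should lack Areg, and 3.60%, 9.06%, 3.49% and 9.17% of them had an Areg UMI at the same depth (unthinned 10.6%, 29.7%, 6.67% and 25.4%, at medians of 22642.5, 48633, 24549 and 37644.5 UMIs). Highly and weakly expressing cells were present in all 4 libraries, since the highest thinned count in a Progenitor.2 cell was 61, 69, 32 and 36.

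**Figure D2:**
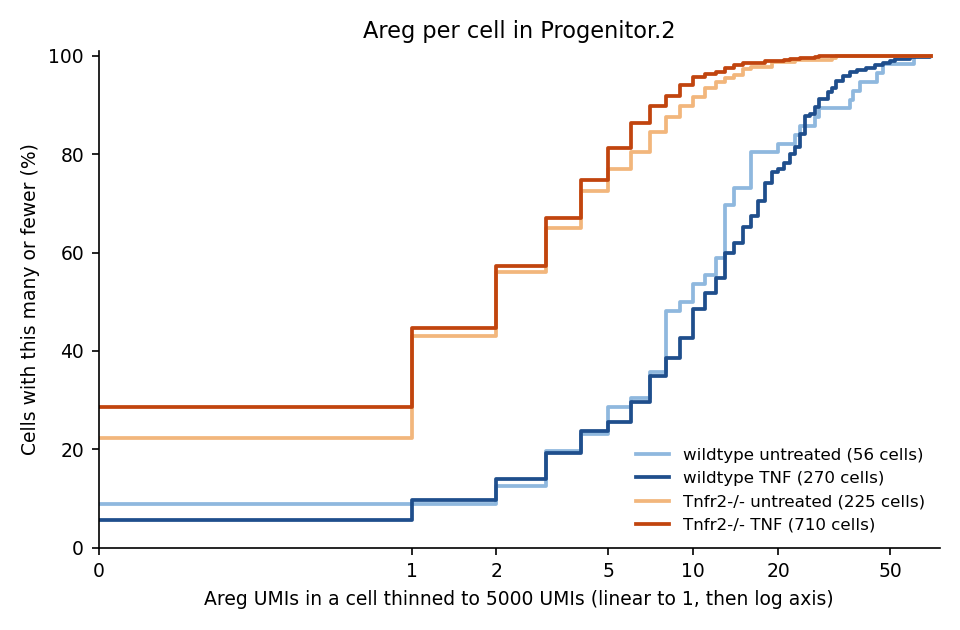
Cumulative share of Progenitor.2 cells (y axis, percent) by Areg UMIs per cell (x axis) after thinning to 5000 UMIs, for 56 and 270 wildtype cells (untreated, TNF) and 225 and 710 Tnfr2-/- cells (untreated, TNF). Both Tnfr2-/- curves rise early (median 2 UMIs), and both wildtype curves lie to their right (medians 9.5 and 11).

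Among the other epithelial classes, Areg was high in absorptive cells at 1875 CPM (319 cells, wildtype untreated), 2036 CPM (19 cells, wildtype TNF) and 851 CPM (11 cells, Tnfr2-/- untreated). It was lowest in enteroendocrine cells, at 27.4, 33.3, 40.1 and 47.2 CPM, which overlaps the 10.6 to 52.2 CPM of mesenchymal cells. In the secretory class named for Reg4, Spdef and Lyz1, Areg was at 253, 663, 133 and 456 CPM, the last from 8 cells. TNF went with a 2.62-fold higher Areg level and a 2.25-fold higher Hbegf level in this secretory class of the wildtype, where 3.04% of 5551 genes were called. Areg in the small Progenitor.3 class followed no such order, at 279, 121, 47.1 and 413 CPM, the last from 11 cells.

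**Figure D3:**
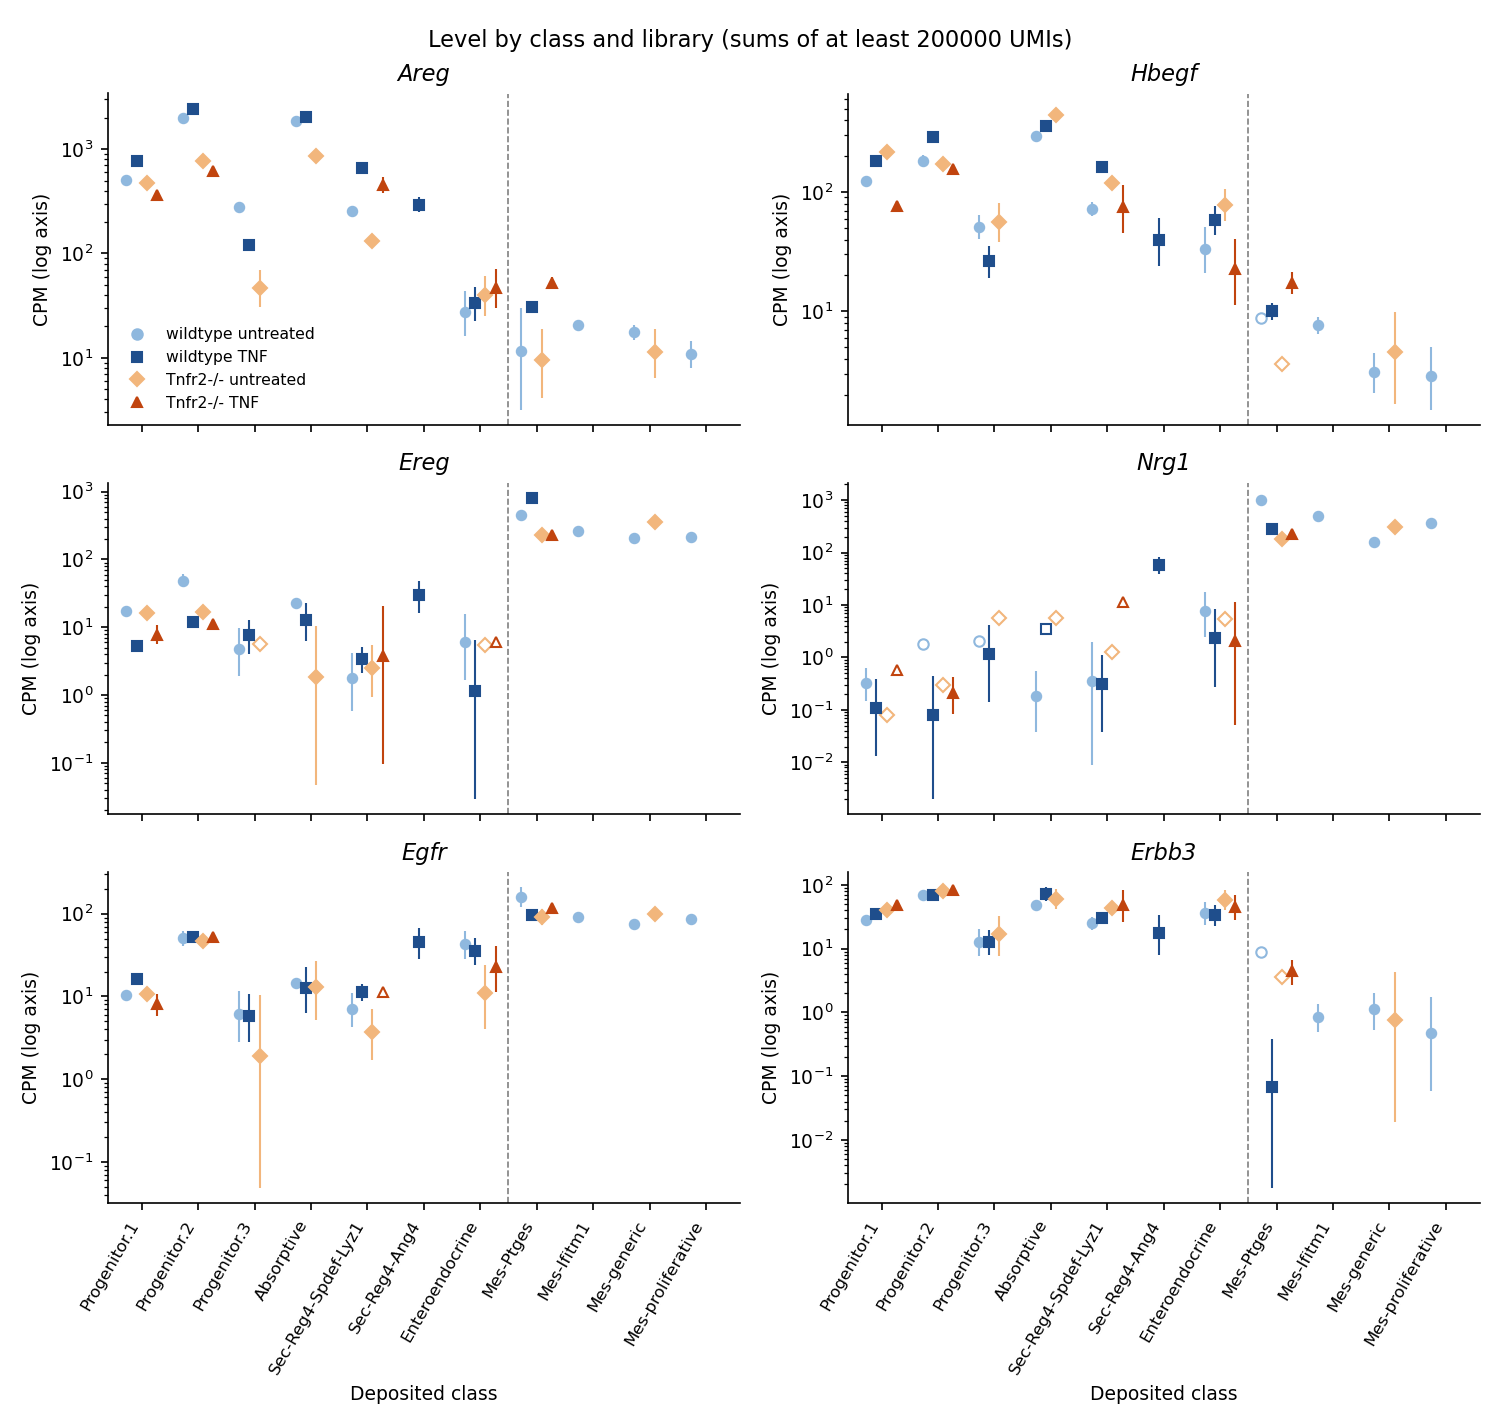
Levels of Areg, Hbegf, Ereg, Nrg1, Egfr and Erbb3 in each deposited class (x axis, Sec for secretory and Mes for mesenchyme), in CPM on a log axis, with a marker per library and exact Poisson 95% intervals. Only sums of at least 200000 UMIs are drawn, and the dashed line divides epithelial from mesenchymal classes. Areg peaks in Progenitor.2 and absorptive cells (up to 2417 CPM), and Ereg and Nrg1 stand high to the right of the line (up to 796 and 990 CPM).

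The cells that supplied Areg were not the same in the 4 cultures. Epithelial cells gave 96.6%, 99.1%, 99.2% and 98.9% of all Areg UMIs. In the wildtype untreated library 59.8% came from absorptive cells, which held 18.4% of its UMIs. In the wildtype TNF library 59.5% came from Progenitor.2, which held 22.6% of UMIs. In Tnfr2-/- without TNF, Progenitor.1 gave 66.8% of Areg from 69.1% of UMIs, and with TNF Progenitor.2 gave 89.6% from 75.7%. In both wildtype libraries and in Tnfr2-/- with TNF, the leading class thus gave a larger share of Areg than of UMIs. In untreated Tnfr2-/- it did not. The leading class held most UMIs in both Tnfr2-/- libraries, which limits how far its Areg share can exceed its UMI share. These shares therefore do not compare the genotypes.

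**Figure D4:**
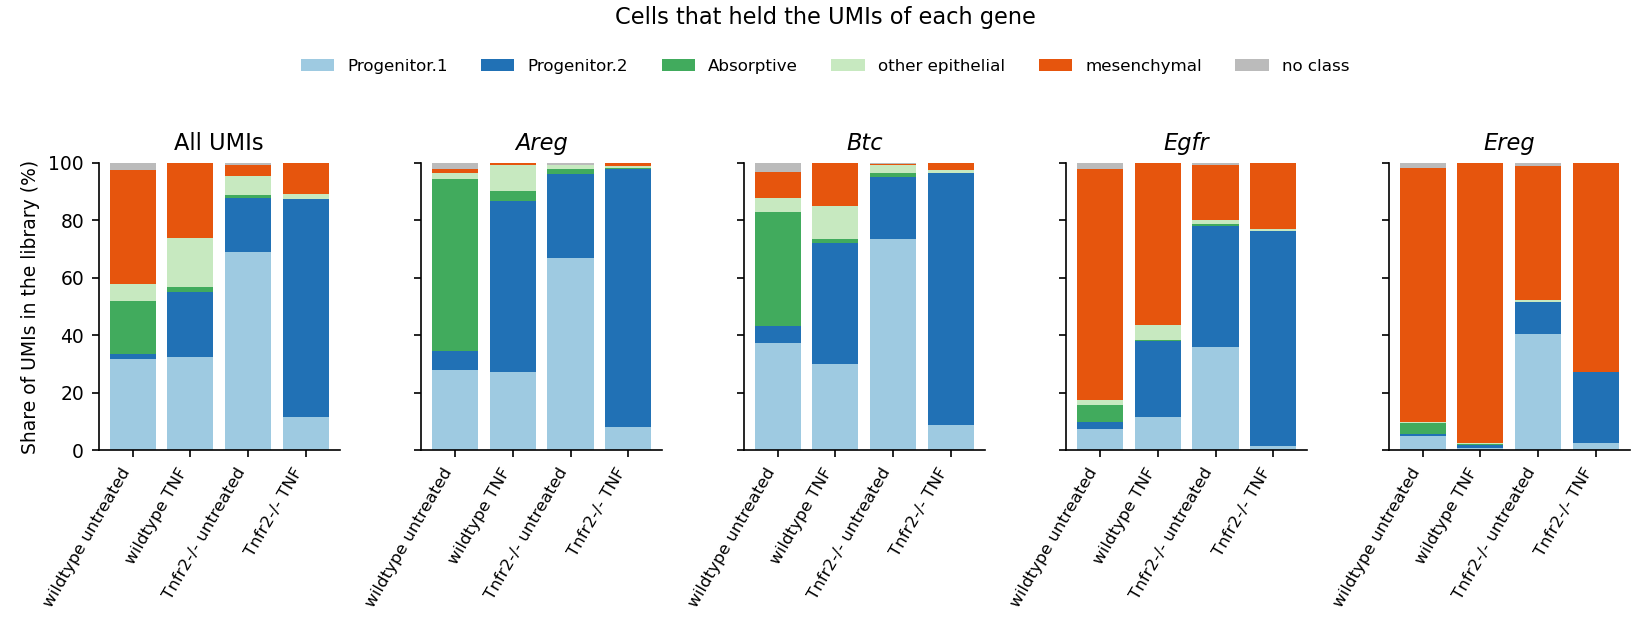
Stacked bars of the share of UMIs (percent, starting at 0) by cell group in each library, for all UMIs and for Areg, Btc, Egfr and Ereg. Areg comes from epithelial classes in every library (96.6% to 99.2%), and the mesenchymal share of Egfr UMIs goes from 80.5% in wildtype untreated to 19.3% in Tnfr2-/- untreated.

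Hbegf encodes heparin-binding EGF-like growth factor, which binds Egfr and is known for its part in epithelial restitution. Its epithelial level was 174, 204, 203 and 142 CPM. The TNF library was the higher in the wildtype (log2 0.23) and the lower in Tnfr2-/- (-0.51), but in the mean over cells the wildtype difference was -0.05. In Progenitor.1 the levels were 123, 183, 218 and 76.2 CPM, the last from 95 cells. With TNF the wildtype level was 1.48-fold higher (1.41 to 1.55), and the Tnfr2-/- level was 2.86-fold lower. The genotypes lay in opposite order without and with TNF in this class, with log2 differences of 0.82 and -1.25. In Progenitor.2 the levels were 183 CPM (163 to 204), 287 CPM (278 to 296), 171 CPM (163 to 180) and 155 CPM (151 to 159). Wildtype TNF was highest, and Tnfr2-/- TNF was lowest, with an interval below those of the other 3 libraries.

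Areg and Hbegf shared this pattern within both progenitor classes, where each had a higher level with TNF in the wildtype and a lower level with TNF in Tnfr2-/-. For Areg the log2 differences were 0.59 and -0.39 in Progenitor.1, and 0.28 and -0.33 in Progenitor.2. For Hbegf they were 0.56 and -1.50 in Progenitor.1, and 0.65 and -0.14 in Progenitor.2, and the last became 0.03 under TMM scaling. Hbegf in Tnfr2-/- Progenitor.1 was the only member called with TNF in these 4 comparisons, other than Ereg in wildtype Progenitor.2. The shares of all genes called were 2.46% and 2.02% in Progenitor.1 (wildtype, Tnfr2-/-) and 7.46% and 1.99% in Progenitor.2. Between the genotypes with TNF, Areg and Hbegf were both called lower in Progenitor.1 (3.33% of genes called) and Areg alone in Progenitor.2 (7.92%). Without TNF, no member was called in Progenitor.1 (2.25%), and Areg and Ereg were called lower in Progenitor.2 (7.98%).

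**Figure D5:**
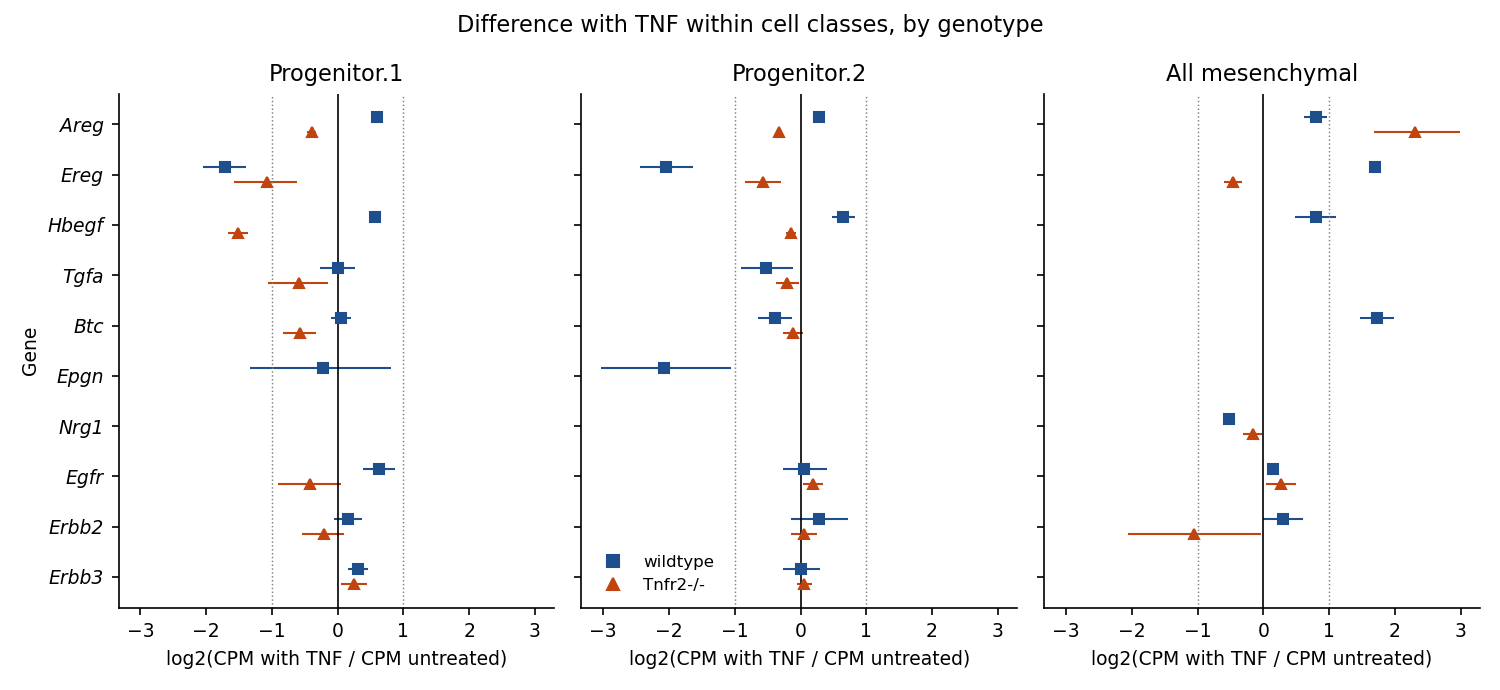
Log2 ratio of the level with TNF to that without (x axis, no pseudocount) for each gene (y axis) in wildtype and Tnfr2-/-, within Progenitor.1, Progenitor.2 and all mesenchymal cells, drawn where both sums hold at least 10 UMIs. Bars are exact conditional 95% intervals for counting error, and dotted lines mark 2-fold. Areg and Hbegf lie above 0 in the wildtype and below 0 in Tnfr2-/- in both progenitor panels. Mesenchymal Ereg lies 3.25-fold up in the wildtype and below 0 in Tnfr2-/-. The mesenchymal panel pools classes whose makeup differed between the libraries.

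Tgfa encodes transforming growth factor alpha, an Egfr ligand made by gut epithelium. Its epithelial level was 14.1, 15.2, 17.8 and 28.3 CPM, highest in Tnfr2-/- with TNF. Within Progenitor.1 it was 10.7, 10.7, 13.1 and 8.78 CPM, and within Progenitor.2 38.7, 26.9, 36.6 and 31.9 CPM. The high value over all epithelial cells was not found within these classes, and with both classes weighted equally the difference with TNF in Tnfr2-/- turned from 0.64 to -0.28. Progenitor.2, where Tgfa was the higher, held 716 of the 858 epithelial cells of that library.

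Btc encodes betacellulin, which can bind Egfr and Erbb4. Over all epithelial cells it was nearly level across the libraries, at 39.8, 39.9, 39.2 and 37.8 CPM, and each of the 4 log2 differences was between -0.08 and 0.00. In Progenitor.2 it was at 84.6, 64.3, 43.3 and 39.9 CPM, lower in both Tnfr2-/- libraries. Its mesenchymal level was 6.01, 19.9, 3.22 and 7.54 CPM. Relative to the epithelial level these were 15.1%, 49.9%, 8.21% and 20.0%, from 209, 293, 7 and 36 UMIs. The epithelial markers in mesenchymal cells had medians of 1.07%, 0.528%, 1.18% and 4.89% of theirs, and the highest in any library was 10.7%. The part of epithelial RNA in the mesenchymal Btc level was not tested.

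Epgn encodes epigen, an Egfr ligand of low affinity. It had 70, 48, 5 and 10 UMIs over all epithelial cells and never reached 20 CPM. Within Progenitor.2 it had 15, 27, 1 and 9 UMIs, or 8.93, 2.13, 0.101 and 0.267 CPM. Mesenchymal cells held 1, 6, 0 and 0 Epgn UMIs.

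Ereg encodes epiregulin, an Egfr ligand, and was mostly mesenchymal. In mesenchymal cells it was at 244 CPM (239 to 249), 793 CPM (779 to 808), 321 CPM (298 to 346) and 233 CPM (220 to 248). Wildtype TNF stood apart from the other 3 libraries. The wildtype level was 3.25-fold higher with TNF (3.16 to 3.35), while that of Tnfr2-/- was 0.727 of its untreated level (0.661 to 0.800), and with TNF the Tnfr2-/- level was 3.40-fold lower than the wildtype level. Ereg was the only member called in mesenchymal cells with TNF in the wildtype, where 13.2% of genes were called, and between the genotypes with TNF, where 14.5% were called. After thinning, 42.3%, 78.5%, 60.5% and 51.7% of mesenchymal cells held an Ereg UMI (unthinned 72.8%, 96.1%, 81.1% and 79.5%), against 7.83%, 3.09%, 6.36% and 5.32% of epithelial cells (unthinned 26.4%, 12.6%, 23.4% and 17.8%).

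The mesenchymal classes differed between the libraries. The Ptges class held 304 of the 306 mesenchymal cells of wildtype TNF and all 122 of Tnfr2-/- TNF. It held 37 of 90 in untreated Tnfr2-/- and 34 of 1430 in wildtype untreated, where 892 were in the Ifitm1 class. Within the Ptges class Ereg was at 447, 796, 227 and 233 CPM, so that wildtype TNF was again highest. The level with TNF was 1.78-fold the untreated level there (1.52 to 2.11, log2 0.83), so that the call over all mesenchymal cells was lost in this class, and the 34 wildtype untreated cells had a median of 5755 UMIs. Between the genotypes with TNF, Ereg in this class was 3.41-fold lower in Tnfr2-/- (3.21 to 3.63). In Tnfr2-/- the Ptges class was at 227 CPM untreated and 233 CPM with TNF. The lower Tnfr2-/- level with TNF over all mesenchymal cells was thus not found in this class. In the Ifitm1 class of wildtype untreated Ereg was at 262 CPM.

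In epithelial cells Ereg was at 18.7, 7.47, 15.4 and 10.6 CPM, lower with TNF in both genotypes. The level with TNF was also the lower in Progenitor.1 (17.4, 5.31, 16.5 and 7.80 CPM) and in Progenitor.2 (48.8, 11.8, 16.8 and 11.2 CPM). Mesenchymal and epithelial Ereg thus lay in opposite directions with TNF in the wildtype, with log2 differences of 1.70 and -1.22. The epithelial level was 7.67%, 0.942%, 4.78% and 4.52% of the mesenchymal level, and the mesenchymal markers in epithelial cells had medians of 0.0861%, 0.290%, 0.0280% and 0.0767% of theirs. The part of free RNA in the epithelial Ereg level was not tested.

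Nrg1 encodes neuregulin 1, the Erbb3 ligand. In mesenchymal cells it was at 394 CPM (388 to 401), 275 CPM (266 to 283), 257 CPM (236 to 279) and 229 CPM (216 to 243), highest in wildtype untreated. Epithelial cells held 18, 39, 0 and 8 Nrg1 UMIs, and the 0 allows a level of up to 0.0592 CPM. Its epithelial level was 0.0907%, 0.344%, 0% and 0.0877% of the mesenchymal level, beside the mesenchymal marker medians of 0.0861%, 0.290%, 0.0280% and 0.0767% given above. Of the 39 UMIs in wildtype TNF, 30 were in the Reg4-Ang4 secretory class. Its 246 cells had a median of 1957.5 UMIs, and the 8 mesenchymal markers summed to 922 CPM there. The part of free RNA in the epithelial Nrg1 level was not tested. After thinning, 67.5%, 61.1%, 61.6% and 53.3% of mesenchymal cells had an Nrg1 UMI (unthinned 89.3%, 97.1%, 93.3% and 94.3%), and 0.276%, 0.573%, 0% and 0% of epithelial cells did (unthinned 1.42%, 2.92%, 0% and 0.699%). Within the Ptges class Nrg1 was at 990, 276, 179 and 229 CPM, so the high wildtype untreated value was present there too, in 34 shallow cells.

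Egfr, the receptor of most of these ligands, was higher in mesenchymal cells in every library. Mesenchymal levels were 88.0, 97.2, 96.5 and 116 CPM, and none of the 4 log2 differences exceeded 0.26. Over epithelial cells Egfr was at 13.1 CPM (12.2 to 14.2), 26.8 CPM (25.3 to 28.5), 17.2 CPM (16.1 to 18.4) and 46.2 CPM (44.1 to 48.3). The level with TNF was 2.04-fold the untreated level in the wildtype (1.85 to 2.25) and 2.68-fold in Tnfr2-/- (2.47 to 2.91). On the log2 scale of CPM + 1 these were 0.98 and 1.37, so that only the second was called, as the only member in that comparison, where 13.4% of 6143 genes were called and 5.55% were higher.

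Egfr differed more between the epithelial classes than between the libraries within Progenitor.2. Progenitor.2 held 50.6, 52.7, 46.3 and 52.9 CPM, and Progenitor.1 held 10.4, 16.1, 10.6 and 7.995 CPM. Within Progenitor.2 the log2 differences with TNF were 0.06 and 0.19, and within Progenitor.1 they were 0.58 and -0.37. With both classes weighted equally, the difference over epithelial cells was 0.17 in the wildtype and 0.09 in Tnfr2-/-. Progenitor.2 cells numbered 62, 273, 233 and 716. After thinning, 19.6%, 21.9%, 20.0% and 20.0% of Progenitor.2 cells had an Egfr UMI. Mesenchymal cells supplied 80.5%, 56.3%, 19.3% and 23.2% of all Egfr UMIs, and the antisense gene Egfros overlaps Egfr, so its reads may be included.

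Erbb2, the receptor without a known ligand, was at 17.7, 22.3, 21.7 and 27.2 CPM in epithelial cells and at 7.70, 9.45, 8.27 and 3.98 CPM in mesenchymal cells. Its gene overlaps Mien1 on the other strand. In Progenitor.2 Erbb2 was at 30.4, 36.9, 27.7 and 28.9 CPM, above the 15.6, 17.5, 20.6 and 17.7 CPM of Progenitor.1 in each library. Erbb3, the receptor of Nrg1, was at 35.8, 45.0, 48.8 and 78.2 CPM in epithelial cells. In Progenitor.2 it was at 70.3, 70.6, 80.1 and 83.4 CPM and in Progenitor.1 at 28.4, 35.3, 40.9 and 48.8 CPM, so both Tnfr2-/- libraries were above both wildtype libraries in each class, although the untreated ratio in Progenitor.2 was 1.14 with an interval (0.939 to 1.40) that includes equality. Mesenchymal cells held only 30, 2, 1 and 21 Erbb3 UMIs. The Nrg1 transcript and that of its receptor were thus in different cell types in every library.

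Counted over the members, few passed the 2-fold and 20 CPM rule. In epithelial cells with TNF, none of the 6 members that reached 20 CPM was called in the wildtype (3.62% of 5833 genes were), and 1 of 7, Egfr, was called in Tnfr2-/- (13.4%). Between the genotypes none of 5 was called without TNF (6.01%) and 1 of 7, Areg, with TNF. In mesenchymal cells with TNF, Ereg was called in the wildtype (1 of 4) and Areg in Tnfr2-/- (1 of 4, against 12.4% of genes), the latter at 10.6 and 52.2 CPM from 23 and 249 UMIs. Those Areg levels were 2.06% and 9.06% of the epithelial ones, and the epithelial markers in the mesenchymal cells of the same libraries had medians of 1.18% and 4.89% of theirs. The part of epithelial RNA in this difference was not tested. No member was called in mesenchymal cells between the untreated genotypes (0 of 3, against 7.79%). Each library enters 2 of the 4 comparisons, so these counts are not independent of each other. Over the members that reached 20 CPM in epithelial cells, the median log2 difference was 0.32 with TNF in the wildtype, 0.31 with TNF in Tnfr2-/-, 0.23 between the untreated genotypes and 0.27 between the genotypes with TNF. Over all genes tested these medians were 0.04, -0.12, 0.11 and -0.10, and under TMM scaling they were -0.06, 0.06, 0.00 and 0.08. With TNF in Tnfr2-/- epithelium 341 genes were higher and 480 lower, or 485 and 308 under TMM scaling, and between the genotypes with TNF 306 were higher and 387 lower, or 435 and 263.

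Many epithelial cells carried more than 1 ligand transcript. After thinning, 79.1%, 82.5%, 78.7% and 83.6% of epithelial cells had a UMI of at least 1 of the 7 ligands, and 50.05%, 49.3%, 45.4% and 48.5% had UMIs of at least 2 different ligands. In mesenchymal cells the share with any ligand was 78.9%, 90.9%, 80.2% and 81.7%. The mesenchymal share was highest in wildtype TNF.

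The remaining genes of the pathway were taken from lists chosen by function. Of 5 other family genes none reached 20 CPM. Egf itself stayed at or below 0.92 CPM and the ligand Nrg4 at or below 0.42 CPM in both cell types, and the receptor Erbb4 had 0 UMIs in epithelial cells, which allows up to 0.0592 to 0.0754 CPM by library. Of 9 genes that release or carry the ligands, 1 (Rhbdf1) was called higher, between the untreated genotypes, in epithelial cells (9.91 and 21.2 CPM, of 3 that reached 20 CPM, against 6.01% of all genes). In mesenchymal cells Rhbdf1 was called lower with TNF in Tnfr2-/- (52.4 and 17.4 CPM, log2 -1.54, of 7 that reached 20 CPM, against 12.4%). Adam17, the protease that frees Areg, was at 16.2, 20.7, 21.2 and 20.1 CPM in epithelial cells and at 61.4, 74.1, 95.1 and 84.0 CPM in mesenchymal cells. Rhbdf2, which helps Adam17 mature, was at 8.34, 15.7, 12.6 and 20.7 CPM in epithelial cells. None of 15 genes of the Ras-MAPK cascade was called in epithelial cells in any of the 4 comparisons, of 12 or 13 that reached 20 CPM, against 3.62%, 13.4%, 6.01% and 11.4% of all genes.

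Of 17 inhibitors of the pathway, Dusp4, a phosphatase of MAP kinases, was the only epithelial call with TNF in either genotype (1 of 11 that reached 20 CPM, against 3.62% and 13.4% of all genes), at 13.4, 35.0, 21.0 and 84.0 CPM. Errfi1, which binds and inhibits Egfr, was at 61.5, 102, 89.7 and 150 CPM in epithelial cells and at 12.7, 37.9, 11.02 and 28.7 CPM in mesenchymal cells. Both TNF libraries were above both untreated libraries in each cell type, but Errfi1 was called with TNF in mesenchymal cells alone. In mesenchymal cells Spry1, an inhibitor of receptor tyrosine kinase signalling, was at 162, 18.8, 189 and 27.5 CPM, lower with TNF in both genotypes (log2 -3.03 and -2.74). Dusp5, a phosphatase of nuclear ERK, went the other way at 2.73, 21.6, 4.59 and 35.8 CPM. Spry2, of the same family as Spry1, was at 43.3, 34.9, 18.4 and 15.9 CPM there, lower in Tnfr2-/- under both treatments. Lrig1, which promotes loss of Egfr from the cell and marks stem cells, was at 18.3, 31.6, 28.2 and 16.5 CPM in epithelial cells. Dusp6, an ERK phosphatase, was at 31.0, 45.9, 40.4 and 26.3 CPM there and Spry4 at 4.39, 5.56, 2.53 and 4.02 CPM. The whole list had 2 members higher and 1 lower in wildtype mesenchyme with TNF, and 3 higher and 3 lower in Tnfr2-/-, of 11 and 12 that reached 20 CPM, against 13.2% and 12.4% of all genes.

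Of 15 transcripts commonly driven by ERK, none was called in wildtype epithelium with TNF, and 1 was higher and 1 lower in Tnfr2-/-, of 12 and 11 that reached 20 CPM, against 3.62% and 13.4% of all genes. Ier3, an immediate early gene, was at 116, 226, 283 and 587 CPM in epithelial cells, higher in Tnfr2-/- under both treatments (log2 1.28 and 1.37). In mesenchymal cells Fosl1, an AP-1 subunit, was at 9.54, 84.7, 24.8 and 127 CPM, higher with TNF in both genotypes. There Ier3 was also higher with TNF (132, 747, 352 and 1060 CPM), whereas Fos, another AP-1 subunit, was lower with TNF in both genotypes (144, 55.3, 98.8 and 36.7 CPM). Of 7 genes of dissociation and heat stress, 1 was called higher in untreated Tnfr2-/- epithelium (of 4 that reached 20 CPM, against 6.01% of all genes), and between the genotypes with TNF 3 were higher and 1 lower (of 6, against 11.4%). They did not move together. Hspa1b, a heat shock chaperone, was at 7.93, 11.4, 30.1 and 44.4 CPM in epithelial cells, higher in Tnfr2-/- under both treatments. Atf3, a stress-induced transcription factor, was at 325, 610, 359 and 262 CPM there and was the gene called lower between the genotypes with TNF (log2 -1.22), while in mesenchymal cells it was at 8.42, 13.7, 27.1 and 76.9 CPM. Hsph1, another chaperone, was at 35.9, 30.3, 53.0 and 24.4 CPM in epithelial cells. The part of dissociation stress in the ligand levels was not tested.

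The genes most like each member were sought by Pearson's r of log2 (CPM + 1) over 31 sums of a class in a library, among 10424 genes. The sums of a library share culture and depth, and the r is a description. Areg was most like Lrrc66 (0.951), Slc45a3 (0.946) and L1cam (0.934). Hbegf was most like Plekhh1, Atp8a1 (both 0.953) and Myh14 (0.952), and Tgfa most like Itgb6 (0.949), Cnksr1 (0.942) and Lrrc66 (0.941). Btc was most like Areg itself (0.865), its neighbour on chromosome 5, and then Lgr4 and 5730559C18Rik (both 0.832). Nrg1 was most like Hgf, Acvrl1 (both 0.990) and Zeb2 (0.989), and Ereg most like Peak1 (0.946), Ehd2 (0.942) and Emp3 (0.936). Egfr was most like Map7d1 (0.943), Me1 (0.936) and Itgb1 (0.931). Erbb2 was most like Fam234a (0.846), Adtrp (0.844) and Ces2c (0.842), and Erbb3 most like Tnk1 (0.985), Ocln (0.984) and Rhpn2 (0.983). Among the members, Areg went with Tgfa (0.903) and Hbegf (0.885), and Ereg with Nrg1 (0.843), while Areg and Ereg, 46.0 kb apart, had an r of -0.400. The sums span epithelial and mesenchymal classes, between which Areg and Ereg differ in opposite directions. The r therefore does not describe this pair within a cell type.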

How the data were processed

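The deposited matrix holds UMI counts per gene and cell as whole numbers. Per the submitters' processing notes, the authors used Cell Ranger 5.0.0 with mm10, and per the study's methods they loaded the counts in monocle3 1.0.0 and removed cells under 100 UMIs and doublets of epithelial with mesenchymal cells. No source used here states the strand setting. Classes were taken unchanged from the deposited annotation, which the authors made by Leiden clustering. The size factor deposited for each cell (a score) and the plotting coordinates were not used.

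For each library, UMIs were added up by class, over all epithelial classes and over all mesenchymal classes, and the sums were scaled to CPM. Log2 differences used a pseudocount of 1 CPM, and calls needed 2-fold and 20 CPM. Sums carry exact Poisson, shares exact Clopper-Pearson and ratios exact conditional binomial 95% intervals, for counting error only. A 0 allows up to 3 counts. With 1 library per group there is no test and no p-value. Shares of cells used a random thinning to 5000 UMIs, which left out 405 of 6155 cells. Doublets were scored with scrublet in scanpy 1.11.5, which called 47 cells (0.764%), 4 of them epithelial, and none was removed. Likeness used sums of at least 200000 UMIs and genes with a mean of at least 5 CPM over them, and the 3 genes with the highest r are named per member. TMM factors came from edgeR 4.0.16 in R 4.3.3. Positions are from GENCODE M21, and promoters from RefSeq (GRCm38.p6). The members, the pathway lists (other family genes, release, Ras-MAPK cascade, inhibitors, ERK-driven transcripts, stress), the marker lists and the comparisons were chosen with earlier results of these data known. Pathway genes are named where called in the same direction in both comparisons of TNF or of genotype, up to 3 per list and direction, and Egf, Erbb4, Nrg4, Adam17, Rhbdf2, Errfi1, Lrig1, Dusp6 and Spry4 in any case. Rhbdf1 and Hsph1 were added after their values were seen. Other scalings, pseudocounts, floors and weightings of the cells were tried.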

Additional observations from a re-analysis of the deposited data

Results flagged for a closer look

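In 7 flagged cases a gene's level with TNF moved one way in the wildtype and the other way in Tnfr2-/-. They are not all such cases, since Egfr in Progenitor.1 and Erbb2 in mesenchymal cells also moved in opposite directions. With 1 library per condition, none of these differences between the genotypes was tested. In epithelial cells, Hbegf had a log2 difference (TNF minus untreated) of 0.23 in the wildtype and -0.51 in Tnfr2-/-, and the wildtype value was -0.05 in the mean over cells. In Progenitor.1, Hbegf was at 0.56 and -1.50, and Areg at 0.59 and -0.39. In Progenitor.2, Hbegf was at 0.65 and -0.14, with the latter at 0.03 under TMM scaling, and Areg at 0.28 and -0.33. In mesenchymal cells, Ereg was at 1.70 and -0.46, over classes whose makeup differed between the libraries. Within the Ptges class, its level with TNF was not lower in Tnfr2-/-. Mesenchymal Erbb3 was at -0.71 and 1.89, from only 30, 2, 1 and 21 UMIs, in libraries whose mesenchymal cells had an epithelial marker sum of 304, 238, 164 and 889 CPM. Hbegf, Areg and Ereg are transcripts of Egfr ligands, and Erbb3 is that of the Nrg1 receptor.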

How the results depend on the processing

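No paired analysis was possible because each condition had 1 library, and for the same reason no replicate could be left out. The count of members called in epithelial cells with TNF in the wildtype was 0, and it was 1 with a pseudocount of 0.1 CPM (Egfr) and 1 (Ereg, lower) with a floor of 5 CPM, with no floor, after thinning and with Progenitor.1 and Progenitor.2 weighted equally. With TNF in Tnfr2-/- the count of 1 was 0 under equal weights. Between the untreated genotypes the count of 0 was 1 under TMM and median-of-ratios scaling and after thinning (Areg, lower), and 1 with no floor (Epgn, lower). Between the genotypes with TNF the count of 1 was 0 under median-of-ratios scaling, 2 in the mean over cells (Tgfa and Erbb3, higher, without Areg) and 2 under equal weights (Areg and Hbegf, lower), and under TMM scaling it was 1 with Tgfa in place of Areg. The count of 3 members higher in epithelial cells in all libraries was 5 with a floor of 5 CPM or none (adding Tgfa and Erbb2) and 5 under equal weights (adding Btc and Erbb2), and 4 (adding Btc) under TMM scaling, under median-of-ratios scaling and without Progenitor.3 and the Reg4-Ang4 class, and the count of 3 lower was 3 under every alternative run. Each member's log2 difference over epithelial cells was set against its value under each alternative, so that 1 difference enters several times. Of 300 such pairs with a main difference of at least 0.25 in size, 287 had the same sign and 13 did not. Of all 400 pairs, 176 had an alternative value outside the counting interval of the main ratio. Log2 differences were also compared within Progenitor.1, within Progenitor.2 and over all mesenchymal cells, which pool 4 classes of differing makeup. All 78 differences of at least 0.25 in size there had the same sign under TMM scaling and with cells of at least 20000 UMIs. Both alternatives were chosen after seeing the data. The causes of these shifts were not tested. Progenitor.2 of wildtype untreated (62 cells), Progenitor.1 of Tnfr2-/- TNF (95 cells) and the mesenchyme of untreated Tnfr2-/- (90 cells) limit the precision. So do smaller groups whose levels are given: absorptive cells of untreated Tnfr2-/- (11 cells), Progenitor.3 (11) and the Spdef secretory class (8) of Tnfr2-/- TNF, and the Ptges class of wildtype untreated (34) and of untreated Tnfr2-/- (37).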
